A study of Caenorhabditis elegans with 4 samples.

Results

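The cuticlin and cuticlin-like genes of *C. elegans* were examined in RNA of embryos on 4 Affymetrix *C. elegans* genome arrays. Members were the genes whose symbol is *cut-* or *cutl-* followed by a number and that a probe set of the array names alone. This rule found 34 of 17138 genes, 6 *cut-* and 28 *cutl-* genes, with 40 probe sets between them. *cutl-23* has no such probe set and was not analysed here, and 1 probe set that lists *cutl-8* under a pair of gene IDs was left out. Each gene was represented by its brightest probe set.
Embryos of *daf-19(m86);daf-12(sa204)* worms are on 2 arrays, labelled *daf-19(-)*. The other 2, labelled *daf-19(+)*, hold embryos of *daf-12(sa204)* worms. Both groups thus carried *daf-12(sa204)*, a mutation of the nuclear receptor gene of the dauer decision, because it suppresses the constitutive dauer formation of *daf-19(m86)*. The embryos came from gravid adults treated with hypochlorite, at no stated age, and the study compared them to find genes that depend on DAF-19, the RFX transcription factor of ciliated neurons. The study calls the replicates biological without saying whether they were separate cultures, and the p-values therefore cover the spread among these arrays alone. Precision is limited by the 2 arrays of each group.
The names of the groups are in doubt. The study's supplementary expression table heads the arrays labelled *daf-19(-)* as *daf-12*, and those labelled *daf-19(+)* as *daf-19;daf-12*, and its 4 columns equal the arrays of the opposite label in 1998 of 1998 rows compared. The signals of *daf-19* itself were 2493 and 2365 where the label was *daf-19(-)* but 767.5 and 856.8 where it was *daf-19(+)*, higher by 1.56 on the log2 scale (limma, adjusted p = 0.00166, standard error 0.19). Which naming is right was not settled here. Every difference below is given for the arrays labelled *daf-19(-)* relative to those labelled *daf-19(+)*, and its sign turns if the supplementary headings are right.

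Cuticlins were first defined as the part of the nematode cuticle that stays insoluble after collagens have been dissolved with reducing agents. Most members of the family are membrane-anchored proteins with a zona pellucida (ZP) domain, a module through which extracellular proteins assemble into filaments, and the epidermis secretes them to its apical face. Several ZP cuticlins shape the alae, the ridges that run along the body above the seam cells in particular larval stages. The first larval cuticle is laid down late in embryogenesis, when RNA of some of the cuticlins is made. The tables used here hold no sequence of these genes, so none is shown.

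The signals of most cuticlin and cuticlin-like genes lay somewhat higher on the arrays labelled *daf-19(-)*, and 1 gene, *cutl-26*, passed the test. Over all 34 members 28 had a log2 fold change above 0, or 82.4%, against 56.9% of 17138 genes. In 19 members, or 55.9%, both arrays labelled *daf-19(-)* were above both labelled *daf-19(+)*, against 27% of all genes. In whole embryos a difference in the number of cells that make cuticlins and a difference in RNA per cell cannot be told apart.

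**Figure D1:**
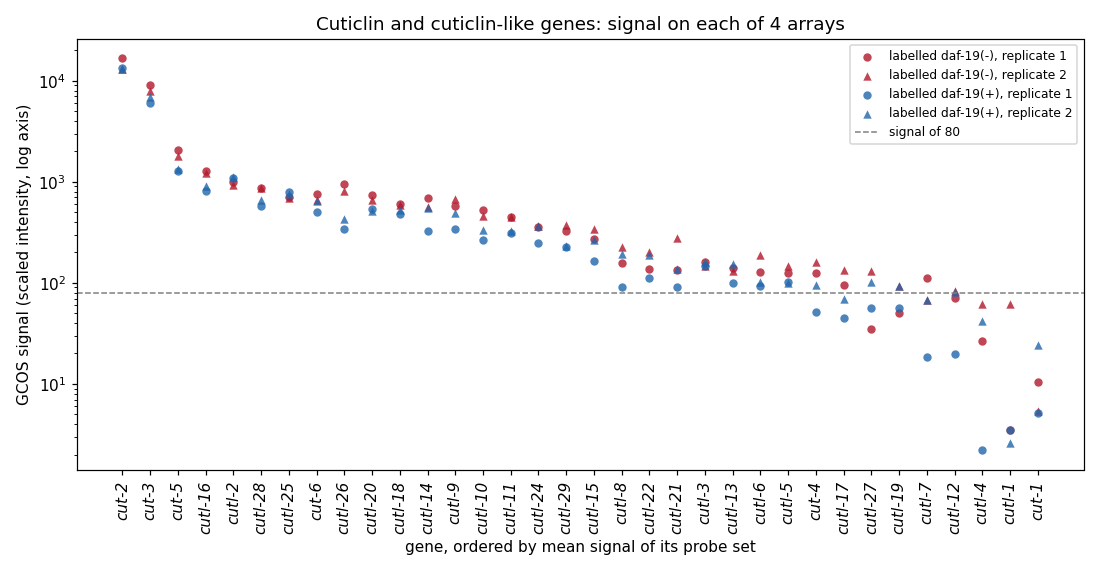
Signal of each of the 34 cuticlin and cuticlin-like genes on the 4 arrays, on a log axis, with genes ordered by the mean signal of their brightest probe set. Red marks are arrays labelled *daf-19(-)* and blue marks those labelled *daf-19(+)*, circles are replicate 1 and triangles replicate 2, and the dashed line is the signal of 80 used as a floor. From *cut-3* to *cutl-15* most red marks lie above the blue ones, and the blue circle is often the lowest of the 4.

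Signals are the authors' GCOS intensities, on a linear scale with every chip brought to the same trimmed mean. A probe set was tested when its signal was 80 or more on at least 2 arrays, which 13096 of 22548 probe sets reached. Of the 34 members 30 were tested, 25 of them at 80 or more on all 4 arrays. 1 member, *cutl-17*, passed only through the arrays labelled *daf-19(-)*, and *cut-1*, *cutl-1*, *cutl-4* and *cutl-7* did not reach the floor on 2 arrays. The test was limma on log2(signal + 16), adjusted over all 13096 probe sets.
By limma 1 of the 30 tested members was higher and 0 were lower at an adjusted p under 0.05, against 0.422% and 0.0925% of 9726 tested genes. At an unadjusted p under 0.05, 7 were higher and 0 lower, against 12% and 7.92% of tested genes. A log2 fold change above 0 was found in 25 of 30 tested members, or 83.3%, against 55.5% of all tested genes. With the replicate number as a block, again 1 member was higher and 0 were lower, against 4.7% and 3.36% of tested genes. The median log2 fold change was 0.45 over the tested members and 0.06 over all tested genes, and the members ranged from -0.20 to 1.17. Over the 34 members with no filter the median was 0.47, and over the 25 members at the floor on every array it was 0.44.

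**Figure D2:**
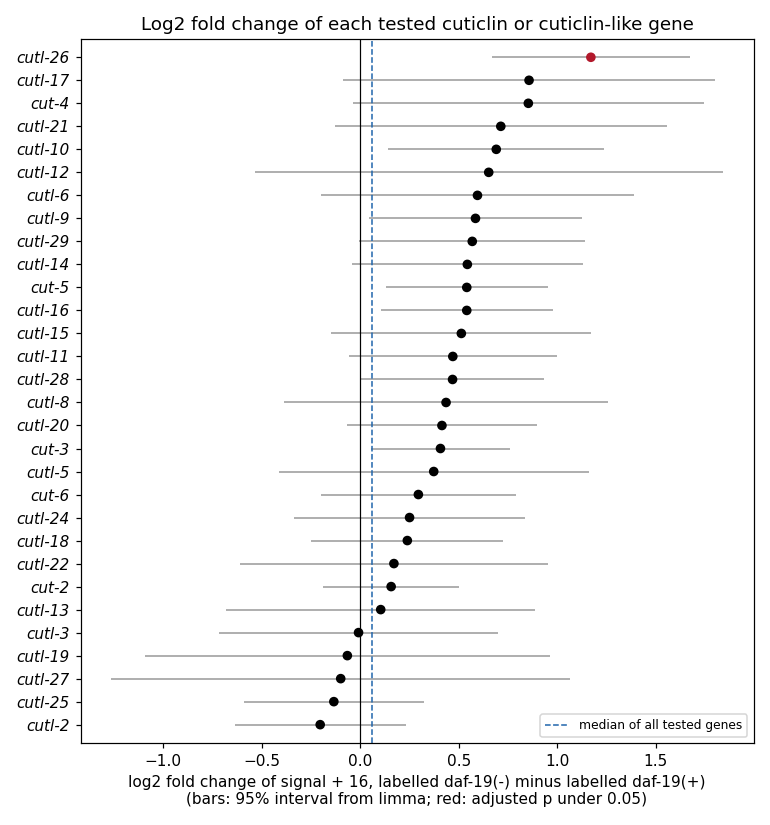
Log2 fold change of signal + 16 of the 30 tested members, arrays labelled *daf-19(-)* minus arrays labelled *daf-19(+)*, with bars for the 95% interval from limma. The red point is *cutl-26*, at 1.17, the blue dashed line is the median of all tested genes at 0.06, and 25 of 30 points lie above 0.

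*cutl-26* (Y55F3C.7) had the largest difference of the tested members. Arrays labelled *daf-19(-)* gave it signals of 947.5 and 812.6, and arrays labelled *daf-19(+)* gave 341.2 and 425.1. The groups are well apart. The ratio of mean signals was 2.30 and the log2 fold change 1.17 (standard error 0.23, limma adjusted p = 0.0468). This call lies close to the threshold and was lost when any of 3 arrays was left out. By limma, leaving out replicate 1 or 2 labelled *daf-19(-)* gave an adjusted p of 0.48 or 0.18, and leaving out replicate 1 or 2 labelled *daf-19(+)* gave 0.16 or 0.0156, while the log2 fold change stayed between 1.02 and 1.32. The probe set carries the suffix of sets whose probes match more than a single transcript, so RNA of other transcripts could add to it.
*cutl-28* (F41A4.1) lies next to *cutl-26* on the same chromosome, with 1 protein-coding gene between them. Its signals were 867.5 and 867.2 against 581.9 and 665.8, so the groups did not overlap here either. The log2 fold change was 0.47 (95% interval 0.0048 to 0.93, adjusted p = 0.27 from limma), which did not pass. The other close neighbours are *cut-2* and *cutl-1*, with 3 genes between them, and *cutl-1* was too dim to test, with signals of 3.5 and 61.8 against 3.5 and 2.6.

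Among the *cut-* genes, *cut-3* and *cut-5* are the ZP cuticlins needed for the alae and body shape of first stage larvae. *cut-3* (F22B5.3) had signals of 9169 and 7976 against 6054 and 6862, and *cut-5* (R07E3.3) had 2044 and 1807 against 1286 and 1347. In both genes each array labelled *daf-19(-)* stood above each labelled *daf-19(+)*. The log2 fold change was 0.41 for *cut-3* (95% interval 0.06 to 0.76, adjusted p = 0.22 from limma) and 0.54 for *cut-5* (95% interval 0.13 to 0.95, adjusted p = 0.18 from limma), and neither passed after adjustment. The probe set of *cut-3* is also shared between transcripts, and that of *cut-5* is not.
*cut-6* (M142.2), a ZP cuticlin of the dauer alae, had signals of 749.2 and 658.2 against 506.3 and 640.3. The groups were separated by a narrow gap, and the log2 fold change was 0.29 (95% interval -0.20 to 0.79, adjusted p = 0.51 from limma). *cut-1* (C47G2.1), another ZP cuticlin, known from the cuticle of dauer larvae, had signals of 10.5 and 5.4 against 5.2 and 24.0 and was not tested. *cut-4* (E04D5.3) had 124.2 and 159.9 against 51.6 and 95.8, a log2 difference of 0.85 (95% interval -0.04 to 1.74, adjusted p = 0.29 from limma). The lowest of these signals, on replicate 1 labelled *daf-19(+)*, and the mean of its group, at 73.7, lie under the floor.
*cut-2* (F53F1.5) differs from the rest in its protein, which lacks a ZP domain and consists largely of short repeats that become cross-linked through tyrosines. It had signals of 16622 and 13054 against 13361 and 13068. Only replicate 1 labelled *daf-19(-)* stood above the others, and the log2 fold change was 0.16 (95% interval -0.19 to 0.50, adjusted p = 0.62 from limma). Some of its probes also match other transcripts.

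The *cutl-* genes are named for the likeness of their proteins to the ZP cuticlins. *cutl-16* (K06A1.3), the brightest *cutl-* probe set, had signals of 1281 and 1225 against 804.2 and 911.4. The groups did not overlap, and the log2 fold change of 0.54 (95% interval 0.10 to 0.98) had an adjusted p of 0.20 from limma. *cutl-17* (F38E11.4) had 95.2 and 135.2 against 44.6 and 68.6, a log2 difference of 0.86 (adjusted p = 0.31 from limma), and the latter signals lie below the floor. *cutl-21* (F55A4.10) had 133.3 and 278.8 against 91.5 and 136.3, a log2 difference of 0.71 (adjusted p = 0.34 from limma), with replicate 1 of the former below replicate 2 of the latter. *cutl-10* (Y53H1B.1) and *cutl-9* (M28.1) also had an unadjusted p under 0.05, besides *cut-3*, *cut-5*, *cutl-16*, *cutl-28* and *cutl-26*, with log2 fold changes of 0.69 and 0.58 (adjusted p = 0.20 and 0.24 from limma). The probe sets of *cutl-10* and *cutl-9* are shared between transcripts.
A few members lay the other way. *cutl-2* (Y53C12B.6) had signals of 988.9 and 924.7 against 1081 and 1127, and *cutl-25* (Y55D5A.6) had 714.7 and 690.3 against 791.2 and 754.2. These 2 are the members in which both arrays labelled *daf-19(-)* were below both labelled *daf-19(+)*, or 6.67% of those tested, against 22.9% of all tested genes. Their log2 fold changes were -0.20 (95% interval -0.64 to 0.23, adjusted p = 0.61 from limma) and -0.13 (95% interval -0.59 to 0.32, adjusted p = 0.77 from limma). *cutl-27* had 34.6 and 132.5 against 56.9 and 102.3, and *cutl-19* had 50.1 and 92.5 against 56.2 and 92.8, with overlapping groups and log2 fold changes of -0.10 and -0.07 (adjusted p = 0.94 and 0.96 from limma). In *cutl-3*, at 159.4 and 146.3 against 148.5 and 159.2, the log2 fold change was -0.0089.
Of the other members *cutl-18*, *cutl-20*, *cutl-11*, *cutl-29*, *cutl-15*, *cutl-14*, *cutl-6* and *cutl-5* had groups that did not overlap, with log2 fold changes from 0.24 in *cutl-18* to 0.59 in *cutl-6* and adjusted p from 0.28 to 0.60 by limma. *cutl-24*, *cutl-8*, *cutl-22*, *cutl-13* and *cutl-12* had overlapping groups and log2 fold changes from 0.10 in *cutl-13* to 0.65 in *cutl-12* (adjusted p from 0.55 to 0.91 by limma). The 95% intervals of all 13 of these genes include 0. *cutl-7* and *cutl-4*, which were not tested, had signals of 112.6 and 68.3 against 18.4 and 67.9, and of 26.4 and 61.7 against 2.2 and 42.3.
In all, 18 of the 30 tested members, or 60.0%, had non-overlapping groups with the arrays labelled *daf-19(-)* above, against 30.9% of all tested genes. These 18 include *cutl-17*, whose order and log2 fold change above 0 were fixed by the filter. It passed the floor only through the arrays labelled *daf-19(-)*, as did 253 of 9726 tested genes. With no filter the count was 19 of 34 members, or 55.9%, against 27% of all genes. The log2 fold change differed between bright and dim genes of the whole array, so members were also set beside genes of like brightness, in classes chosen after the values were seen. Of 13 members with a mean signal of 400 or more, 11 had a log2 fold change above 0, or 84.6%, with a median of 0.41, against 46.9% of 5752 such genes, with a median of -0.03. Of the 17 tested members under 400, 14 did, or 82.4%, with a median of 0.47, against 67.9% and 0.24 for such genes.

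For 4 members a second probe set of the same gene was measured, and these did not always give the same size. The 4 probe sets of *cutl-20* had log2 fold changes of 0.41, 0.30, 0.24 and -0.07, with shared probes in every set but that of 0.41. The dimmer set of *cutl-29* had 182.8 and 201.1 against 152.8 and 214.4, a log2 fold change of 0.08, where the brighter had 329.4 and 370.6 against 227.1 and 233.8, a log2 fold change of 0.57. In *cutl-24* the order was the reverse, with 0.25 in the brighter set and 0.51 in the dimmer, and the dimmer set of *cutl-9* did not reach the floor. None of the other extra sets passed limma. The set of *cutl-8* that was left out had signals of 489.7 and 562.8 against 301.9 and 570.6, with overlapping groups.

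The difference was not equal in the replicates. In replicate 1 the median log2 difference of the tested members was 0.50, with 26 of 30 above 0, and in replicate 2 it was 0.33, with 24 of 30 above 0. All tested genes had medians of 0.09 and 0.02. In both replicates together 23 of 30 members were above 0, or 76.7%, against 38.4% of all tested genes. *cutl-14* differed most between them among the brighter members, with signals of 695.7 and 325.2 in replicate 1 but 563.2 and 552.7 in replicate 2.

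**Figure D3:**
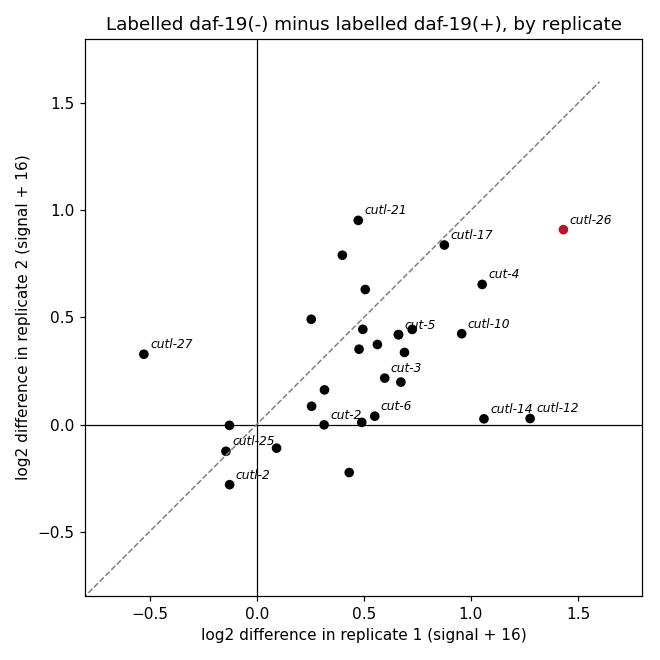
Log2 difference (signal + 16) of the 30 tested members, arrays labelled *daf-19(-)* minus arrays labelled *daf-19(+)*, in replicate 1 (horizontal) and replicate 2 (vertical). The dashed line marks equal differences, the red point is *cutl-26*, and 23 of 30 points lie above 0 in both.

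Replicate 1 labelled *daf-19(+)* was the lowest source of cuticlin signal. It was below replicate 2 of its group in 26 of 30 tested members, with a median log2 difference of -0.32, where all tested genes had -0.06. Between the arrays labelled *daf-19(-)* replicate 1 was above replicate 2 in 15 of 30 members, with a median of -0.0021. Without replicate 1 labelled *daf-19(+)* the median log2 fold change of the members was 0.25 and that of all tested genes 0.03, and without the other arrays in turn the members' median ran from 0.37 to 0.54. Without replicate 2 labelled *daf-19(+)* 3 members passed limma, *cutl-26*, *cutl-14* (adjusted p = 0.0443) and *cutl-9* (adjusted p = 0.0490), against 8.03% of all tested genes.

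Lists of other genes of the apical matrix and of cuticle formation had smaller positive medians, with from 0 of 12 to 4 of 10 tested genes below 0. Of 13 further ZP-domain and apical matrix genes 12 were tested and 0 passed limma in either direction, with 12 of 12 above 0 and a median log2 fold change of 0.21. *lpr-1*, a lipocalin of tubular epithelia, had signals of 697.9 and 1007 against 422.3 and 518.3 (log2 fold change 0.82, adjusted p = 0.14 from limma, and 0.0166 with the replicate number as a block). *dyf-7*, a ZP protein that anchors dendrites of sensory neurons, had 1441 and 1697 against 826.5 and 1122 (log2 fold change 0.69, adjusted p = 0.15 from limma, and 0.0258 with the block). In both genes the groups did not overlap. In the fits with the block the variance of every gene was set by the trend with signal, so that p does not measure the gene's own spread.
Of 14 genes for cross-linking of the cuticle, processing of collagens and moulting, 10 were tested and 0 passed, with 6 above 0 and 4 below, or 60.0% above 0 against 55.5% of all tested genes, and a median of 0.21. *mlt-7*, a peroxidase, had 0.62 (adjusted p = 0.29 from limma), and *tsp-15*, a tetraspanin that works with the dual oxidase BLI-3, had 0.52 (adjusted p = 0.30 from limma). Of 11 body cuticle collagens with a probe set 8 were tested and 0 passed, with 6 above 0 and a median of 0.27, and in replicate 2 only 3 of 8 were above 0. *dpy-13* had signals of 8999 and 10078 against 4401 and 10150, so that only replicate 1 labelled *daf-19(+)* was low (log2 fold change 0.51, adjusted p = 0.34 from limma, and 0.0483 with the block), and *sqt-2* had 0.64 (adjusted p = 0.50 from limma).
Regulators of the epidermis that makes cuticlins were present on every array. *lin-26*, required for epidermal fate, had signals of 2949 and 2777 against 2479 and 2547, and *elt-1*, the GATA factor that specifies the epidermis, had 1257 and 1291 against 1559 and 1663. These 2 lie in opposite directions. Of 10 epidermal and seam factors with a probe set 9 were tested and 0 passed, with a median log2 fold change of 0.24. In 8 of the 9, or 88.9%, the log2 fold change was above 0, against 55.5% of all tested genes. *elt-1* alone was below 0. *rnt-1*, the Runx factor of seam divisions, had 0.59 (adjusted p = 0.27 from limma), and *nhr-23*, a receptor that drives moulting and cuticle genes, had 0.40 (adjusted p = 0.38 from limma).

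Markers of embryo age did not pass the test after adjustment, but most early zygotic genes were lower on the arrays labelled *daf-19(-)*. Of 12 genes of differentiated muscle and hatching, all tested, 0 passed, 12 were above 0 and the median log2 fold change was 0.32, with *myo-1*, a pharyngeal myosin, at 0.58 (adjusted p = 0.22 from limma) and *unc-54*, a body wall myosin, at 0.56 (adjusted p = 0.22 from limma, and 0.0452 with the block). The summed signal of these genes was 40422 and 35393 in the former group against 26655 and 36496 in the latter, so the groups overlapped, and in replicate 2 only 6 of 12 genes were above 0. Of 17 early zygotic genes with a probe set 14 were tested and 0 passed, 12 were below 0 and the median was -0.61. A log2 fold change above 0 was found in 2, or 14.3%, against 55.5% of all tested genes. In 11 of 14, or 78.6%, both arrays labelled *daf-19(-)* were below both labelled *daf-19(+)*, against 22.9% of all tested genes. At an unadjusted p under 0.05 by limma 10 were lower and 0 higher, against 7.92% and 12% of tested genes. With the block 4 were lower and 0 higher, against 3.36% and 4.7%. *ceh-51*, a mesoderm homeobox gene, had -1.10 (adjusted p = 0.18 from limma), and *lsy-27*, an early zinc finger gene, had -0.93 (adjusted p = 0.10 from limma, and 0.00180 with the block). The summed signal of the early genes was 8544 and 9059 against 14822 and 12331.
Replicate 1 labelled *daf-19(+)* thus had the lowest sum of the late genes and the highest sum of the early genes, besides its low cuticlin signals. The part of embryo age in the cuticlin differences was not tested. In replicate 2, where the late muscle genes had a median log2 difference of -0.04 and the collagens of -0.07, the cuticlins had 0.33, and the early zygotic genes had -0.41.

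**Figure D4:**
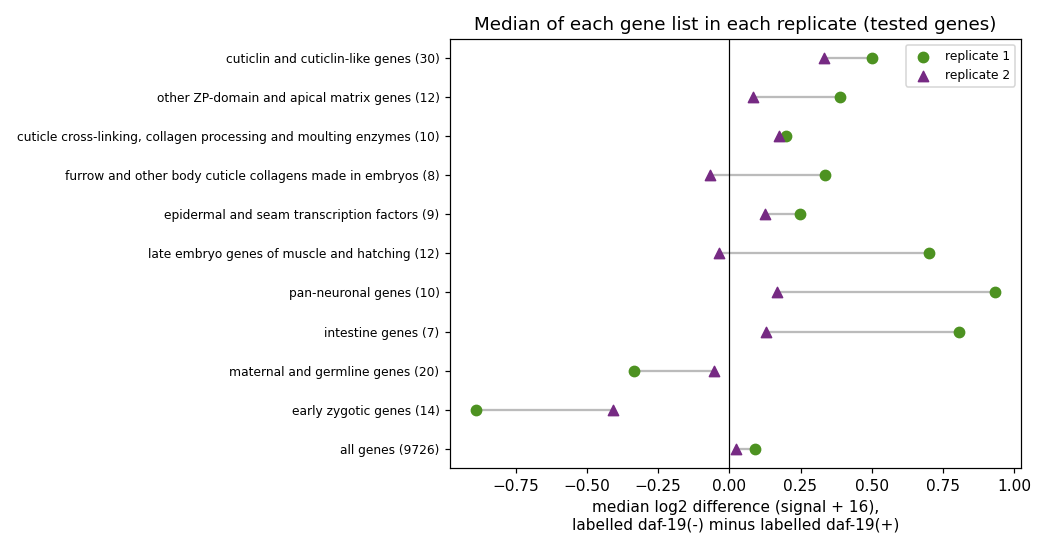
Median log2 difference (signal + 16), arrays labelled *daf-19(-)* minus arrays labelled *daf-19(+)*, of the tested genes of each list in replicate 1 (green circles) and replicate 2 (purple triangles), with the number of tested genes in brackets. The cuticlins lie at 0.50 and 0.33, the late muscle genes at 0.70 and -0.04, and the early zygotic genes at -0.89 and -0.41.

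Genes of some other tissues had medians near or above that of the cuticlins. The median log2 fold change was 0.53 in 10 pan-neuronal genes, with 9 above 0, and 0.43 in 7 intestine genes, with 6 above 0, beside 0.45 in the cuticlins, and it was -0.19 in 20 maternal and germline genes, with 2 above 0. The medians of these tissues were larger in size in replicate 1. The 10 pan-neuronal genes had medians of 0.93 and 0.17 in replicates 1 and 2, the 7 intestine genes 0.80 and 0.13, and the 20 maternal and germline genes -0.33 and -0.05, and 0 genes of these lists passed limma. Their leading genes were *unc-10* and *unc-13*, of synaptic release, with log2 fold changes of 0.86 and 0.76, *pho-1* and *asp-1*, gut enzymes, with 0.72 and 0.60, and *pgl-1* and *nos-2*, of the germ line, with -0.71 and -0.59 (adjusted p from 0.14 to 0.27 by limma). With the block *unc-10*, *unc-13*, *asp-1* and *pgl-1* passed, at adjusted p of 0.0248, 0.0259, 0.0220 and 0.0402.
Remains of adults were sought with yolk and sperm genes. The 5 vitellogenin genes with a probe set had a summed signal of 202.3 and 161.1 against 131.8 and 1001, high on replicate 2 labelled *daf-19(+)* alone, and only *vit-6* was tested, at a log2 difference of -1.09 (limma, adjusted p = 0.34). The 20 major sperm protein genes with a probe set had a summed signal of 1140 and 1350 against 1142 and 1353, alike in both groups. Of the 7 tested, 0 passed, and *msp-55* and *msp-31* had log2 fold changes of -0.91 and 0.71 (adjusted p = 0.29 and 0.42 from limma). The part of adult remains in the cuticlin signals was not tested.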

How the data were processed

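RNA of 4 embryo samples, from 5 micrograms of total RNA each, was measured on Affymetrix arrays. The authors scanned the chips with GCOS, whose version is not given in the sources used here, which scaled each chip to a common target. The deposited values are intensity signals on a linear scale, with a 2% trimmed mean of 500.1 on each array. Nothing else was done between chips. The median signal was 136.2 and 144.4 for *daf-19(-)* labels, 106.0 and 126.8 for *daf-19(+)* labels.
Of 22625 probe sets 77 controls were left out. The platform annotation names 1 gene for 20766 of the others and several for 887, and does not list 895. Symbols were updated by gene ID with the RefSeq table of WBcel235. The test was limma 3.58.1 in R 4.3.3 (variance trend, two-sided, Benjamini-Hochberg) on log2(signal + 16), tested on simulated data first. The offset understates changes of dim genes. Signals of different probe sets are not comparable as RNA levels.
Members, lists and tests were chosen with earlier results of these data known. Named are all members, with full values for those called, the brightest 4, the 4 largest and 4 smallest log2 fold changes and *cut-1* to *cut-6*, and the leading genes of each list. The main test did not use the replicate number. Samples were paired by it only in the block and in the replicate differences, because the study describes 2 separate experiments. Replicate differences correlated at 0.12 between the groups across 13096 probe sets. Alternatives were other filters, offsets and normalization, no trend, the block, each array left out, and other uses of a gene's probe sets.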

Additional observations from a re-analysis of the deposited data

How the results depend on the processing

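The call of *cutl-26* was lost, leaving 0 members called higher, with no filter (adjusted p = 0.17), with a floor of 80 on all 4 arrays (0.0558), after quantile normalization (0.0762), with an offset of 1 (0.0553), with no variance trend (0.16) and when shared probe sets were left out, each by limma, and its log2 fold change stayed from 1.12 to 1.20 where it was tested. With the replicate number as a block it passed (limma, adjusted p = 2.0e-04). In that fit the trend with signal set the variance, so this p does not measure the spread of *cutl-26* itself. The number of members called stayed at 1 and no other member's call changed, while probe sets called went from 47 higher and 11 lower to 572 and 394. With 1 array left out from 0 to 3 members were called higher and none lower by limma. The counts of probe sets called were then from 14 to 971 higher and from 4 to 614 lower, with the largest counts without replicate 2 labelled *daf-19(+)*, where the lone array left in a group is assumed to vary like the other group.
Over all probe sets there were 11 higher and 2 lower with no filter, 24 higher with the floor on all arrays, 31 higher after quantile normalization, 26 higher and 2 lower with no trend, and 20 lower with an offset of 64. The members' median log2 fold change was 0.37 after quantile normalization and between 0.25 and 0.54 with 1 array left out. Quantile normalization turned the sign of *cutl-22* (-0.053) and *cutl-13* (-0.16). With 1 array left out the log2 fold change crossed 0 in *cut-2* (-0.018 to 0.33), *cutl-3* (-0.065 to 0.047), *cutl-8* (-0.049 to 0.92), *cutl-12* (-0.066 to 1.37), *cutl-13* (-0.18 to 0.38), *cutl-19* (-0.42 to 0.29), *cutl-22* (-0.17 to 0.52), *cutl-24* (-0.014 to 0.51) and *cutl-27* (-0.88 to 0.68). The cause was not tested. Signals near or under 80 limit *cut-4*, *cutl-12*, *cutl-17*, *cutl-19* and *cutl-27*.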
